A study of Mus musculus with 6 samples.

Results

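The sirtuins are a family of 7 enzymes, Sirt1 to Sirt7, that remove acetyl and related acyl groups from proteins and consume the coenzyme NAD in doing so. Every probe set annotated to a single gene of this family was taken, which gave 9 probe sets out of 45032 for 7 genes out of 18192. Sirt5 had 3 probe sets and each other member 1. Of the 9, 7 passed a filter on dim signal, 1 for each gene, and the other 2 were dim probe sets of Sirt5.

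Because sirtuins need NAD, their activity follows the supply of that coenzyme, and the family is known as a link between metabolism and protein acetylation. Sirt1, Sirt6 and Sirt7 work mainly in the nucleus, where they act on histones, transcription factors and the machinery of ribosomal RNA synthesis. Sirt2 is mainly cytosolic, and Sirt3, Sirt4 and Sirt5 lie in mitochondria, where they act on enzymes of fuel oxidation. Red cell precursors condense their chromatin and lose their mitochondria as they mature, so both compartments are of interest in this lineage.

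Bone marrow cells sorted as positive for CD71 and Ter-119, surface marks of young red cell precursors, were read on 6 Affymetrix mouse arrays. The 3 Rb-null arrays came from mice of genotype EpoR-GFPcre/+; Rb fl/fl and the 3 control arrays from EpoR-GFPcre/+; Rb fl/+ mice. Both groups therefore carried Cre at the locus of the erythropoietin receptor and at least 1 floxed Rb allele, and the labels give neither age nor strain, nor whether animals were pooled. The title asks how Rb, the retinoblastoma protein, couples leaving the cell cycle to making mitochondria. Nothing states that arrays of a group came from separate animals, so every p measures the spread between these arrays, which may be technical.

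Median intensity was between 23.3 and 31.2 on the 6 arrays. The arrays numbered 3 stood apart, with an 18S control signal of 542 and 1231 against 32.6 to 66.2 on the other 4. Sirtuin results that rest on them are therefore given with and without them, and other single genes only with them. The bright Rb1 probe set read 1379 to 2760 in controls and 2897 to 4045 in Rb-null cells, and where it lies relative to the floxed part was not analysed here, so the directions below rest on the labels. Of 12 erythroid markers 10 were matched, and their summed intensity was 41218 to 44280 in controls and 41879 to 49819 in Rb-null cells. Granulocyte markers, 11 of 12 matched, summed to 35693 to 52606 and 26421 to 53077, with all 11 lower in Rb-null cells (median log2 fold change -0.49). The 8 of 9 matched B cell markers summed to 521 to 864 in controls and 316 to 506 in Rb-null cells, the 9 macrophage markers to 1652 to 3072 and 1408 to 1820, the 8 T and NK cell markers to 443 to 544 and 374 to 530, and the 6 of 7 matched megakaryocyte markers to 346 to 599 and 343 to 423. B cell, macrophage, T and NK cell and megakaryocyte markers had median log2 fold changes of -0.31, -0.33, -0.13 and -0.22. Erythroid markers had 0.03. None of the markers of any type was at 0 on any array. The part of other cells in the sirtuin values was tested only where a covariate is named. In bulk samples, fewer cells of a type and less RNA per cell cannot be told apart.

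No member passed limma's test over all genes, and the largest estimate was that of Sirt1, 2.60-fold higher in the Rb-null group. On the log2 scale the differences ran from -0.38 for Sirt2 to 1.38 for Sirt1, with 4 of 7 members positive and a family median of 0.11, beside -0.04 over the 13232 genes tested. Limma called 0 of the 7 sirtuins at adjusted p under 0.05, as it did 0 of all genes, which is 0% (lowest adjusted p = 0.106). Fitted by probe set, it called 0 of 7 sirtuin probe sets and again 0% of 22239. At unadjusted p under 0.05 stood 1 of 7 sirtuins, Sirt1, which was higher, beside 2.55% of all genes higher and 1.51% lower (537 genes in all).

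The arrays share replicate numbers between the groups, and arrays of the same number resembled each other. With the number as a block in the fit, 0 sirtuins again passed, and 2 stood at unadjusted p under 0.05, Sirt1 higher and Sirt2 lower. Over all genes that fit had 7.77% higher and 9.14% lower at this level (2237 genes). Sirt1, Sirt7 and Sirt5 were higher in each of the 3 pairs, 3 of 7 members beside 18.4% of all genes, and Sirt2 was lower in each pair, 1 of 7 beside 24.1%. The groups did not overlap for Sirt1 alone among the 7, where 5.13% of all genes lay wholly higher and 4.78% wholly lower in Rb-null cells.

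**Figure D1:**
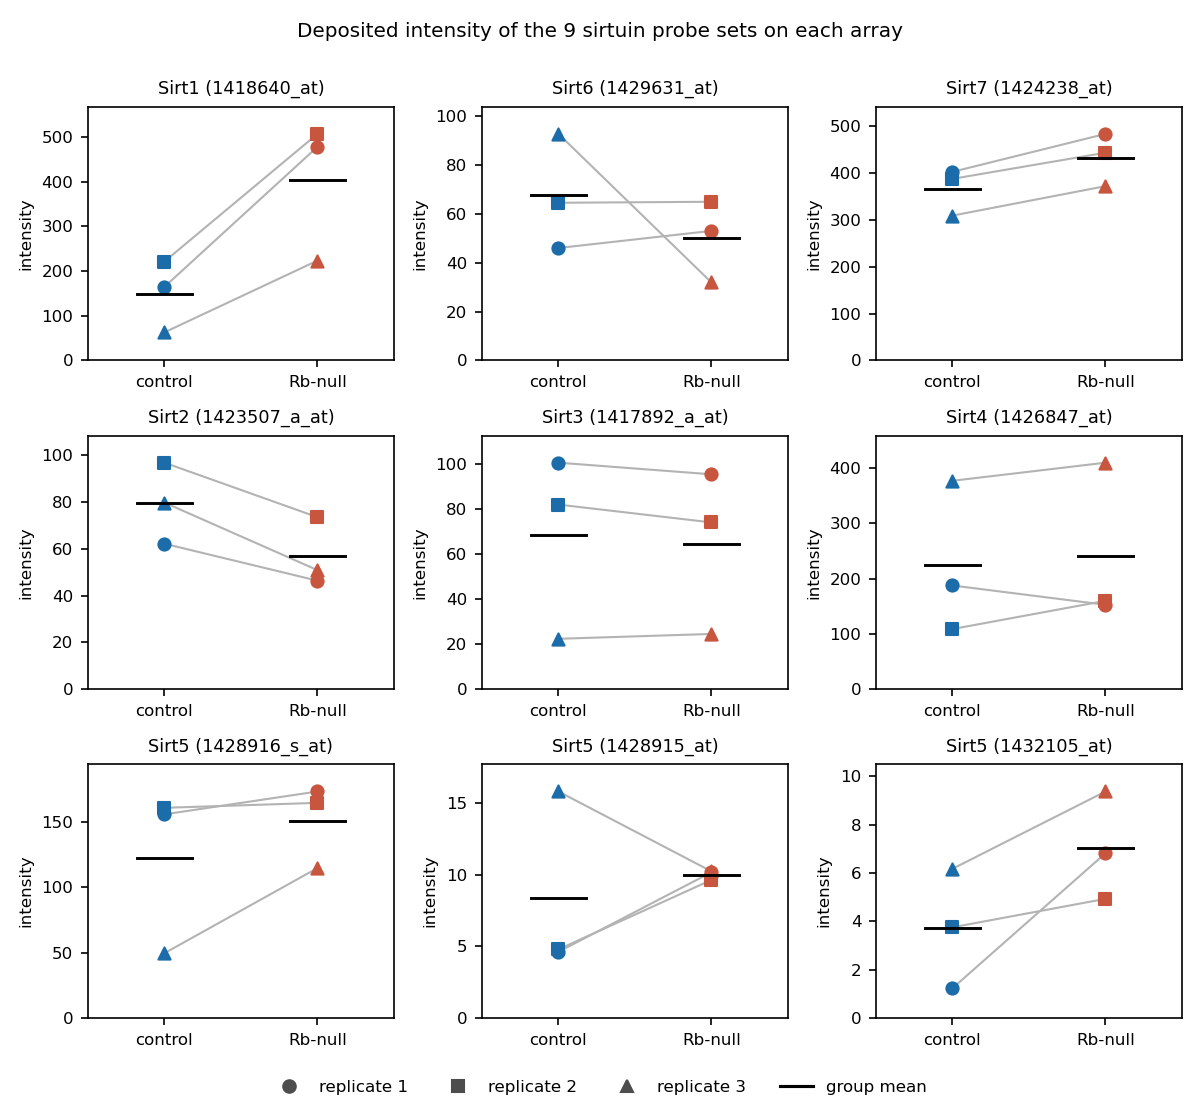
Deposited intensity (linear axis from 0) of each sirtuin probe set on 3 control and 3 Rb-null arrays. Lines join arrays of the same replicate number and black bars are group means. Sirt1 is higher in every pair, at 223 to 507 in Rb-null cells and 62.8 to 221 in controls, while Sirt3 and Sirt4 differ more between replicate numbers than between groups.

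Sirt1 deacetylates p53, FOXO factors and PGC-1alpha, and is the best studied member of the family. From probe set 1418640_at came 165, 221 and 62.8 for controls 1, 2 and 3. The Rb-null arrays of the same numbers gave 478, 507 and 223. All 3 Rb-null arrays lay above all 3 controls, though the lowest Rb-null array and the highest control were nearly equal before normalization. The group means were 150 ± 80.3 (SD, n = 3) and 403 ± 156 (SD, n = 3).

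After quantile normalization the Sirt1 pair differences were 1.42, 1.09 and 1.64 on the log2 scale for pairs 1, 2 and 3. This gave a log2 fold change of 1.38 (SE 0.39, 95% interval 0.49 to 2.27), with limma adjusted p = 0.696. By p, Sirt1 stood at rank 132 of 13232 genes, and 74 genes had a larger absolute log2 fold change. With the replicate block the SE was 0.17 and the interval 0.96 to 1.80, at rank 40, with limma adjusted p = 0.0844. That is above the threshold, and it is the lowest adjusted value of that fit, which 42 genes share. The difference exceeded that of every other member in each pair, a description for which no test was run.

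Sirt1 kept its direction under all 17 alternatives, between 1.01 without control replicate 3 and 1.63, reached both without control replicate 2 and without Rb-null replicate 3, with limma adjusted p from 0.0844 to 1.00. Without both arrays numbered 3 it was 1.26. With the granulocyte markers as a covariate, an alternative chosen after seeing the data, it was 1.45 (SE 0.46). Markers of other cell types were not entered, and their part in this difference was not tested.

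The bases upstream of Sirt1 are shown because this member differed most, with the 250 bases before its start taken from RefSeq (GRCm38.p6, chr10:63339036-63339285, minus strand, written 5′ to 3′ along the gene). Capitals mark the E-box CACGTG, the site of Myc and Max and of related factors, which reads the same on both strands.

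Sirt1: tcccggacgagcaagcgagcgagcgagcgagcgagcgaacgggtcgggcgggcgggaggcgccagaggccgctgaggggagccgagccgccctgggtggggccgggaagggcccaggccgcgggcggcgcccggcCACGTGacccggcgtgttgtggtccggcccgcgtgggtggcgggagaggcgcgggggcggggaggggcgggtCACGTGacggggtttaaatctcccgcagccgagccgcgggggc

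The Sirt1 window held 2 E-boxes, which begin 115 and 43 bases before the start, where 6.02% of the 32851 RefSeq windows of this length held at least 1 and 0.43% held 2 or more. It also held 6 GC boxes (GGGCGG on either strand, in part overlapping). Of all windows 32.7% held at least 1 and 16.7% held 2 or more, and the share with 6 was not counted. The GC content of the Sirt1 window was 79.2%, above 98.4% of windows. No window of another sirtuin held an E-box. These are matches of letters and not measured sites of binding.

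Rb acts through E2F factors, so the family was also searched for TTTCGCGC, TTTGGCGC, TTTCCCGC and TTTGGCGG on both strands. Among the 9 sirtuin windows only that of Sirt4 held a match, beside 1.96% of all windows, and it is printed for that reason (GRCm38.p6, chr5:115484298-115484547, minus strand, match in capitals). The match begins 9 bases before the start. Only the listed letters, and only bases before the start, were searched. A window without a match is therefore not shown to lack a site for E2F factors.

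Sirt4: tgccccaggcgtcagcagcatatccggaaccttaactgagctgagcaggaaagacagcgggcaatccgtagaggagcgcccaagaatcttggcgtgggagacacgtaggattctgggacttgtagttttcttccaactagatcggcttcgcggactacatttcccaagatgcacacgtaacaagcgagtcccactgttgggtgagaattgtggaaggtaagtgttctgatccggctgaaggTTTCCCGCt

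Sirt6 binds chromatin, removes acetyl groups from histone H3 and takes part in DNA repair. Probe set 1429631_at gave 46.0, 64.5 and 92.6 for controls 1, 2 and 3, against 53.0, 64.9 and 31.9 for the Rb-null arrays of those numbers. The groups overlapped, and the 2 arrays numbered 3 held both the highest control and the lowest Rb-null value. Its fold change was -0.34 in log2 units (SE 0.34, 95% interval -1.12 to 0.44, limma adjusted p = 1.00), with pair differences of 0.22, -0.01 and -1.24. Without both arrays numbered 3 the sign turned, to 0.11, and without control replicate 3 alone the estimate was -0.04, so the direction for Sirt6 rests on those arrays.

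Sirt7, a nucleolar enzyme tied to transcription of ribosomal RNA genes, was measured by probe set 1424238_at. Controls 1, 2 and 3 gave 402, 387 and 309, and their Rb-null partners 483, 443 and 372. Each Rb-null array was above the control of its number, by 0.15, 0.16 and 0.27 on the log2 scale, and the groups overlapped. As a log2 fold change this was 0.19 (SE 0.25, 95% interval -0.37 to 0.75, limma adjusted p = 1.00). It stayed positive under all 17 alternatives, between 0.11 and 0.27.

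Sirt2, which deacetylates tubulin among other proteins, was the member lower in Rb-null cells in each pair. Probe set 1423507_a_at gave 62.1, 96.8 and 79.7 for controls 1, 2 and 3, against 46.3, 73.5 and 50.9 for their Rb-null partners, and the groups overlapped. The pair differences were -0.26, -0.33 and -0.53, close to each other beside the spread between numbers. Its log2 fold change was -0.38 (SE 0.29, 95% interval -1.03 to 0.27, limma adjusted p = 1.00), and with the block its SE was 0.15 and its interval -0.75 to -0.01 (limma adjusted p = 0.291). It was negative under all 17 alternatives, from -0.57 to -0.22, the last with the granulocyte covariate.

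**Figure D2:**
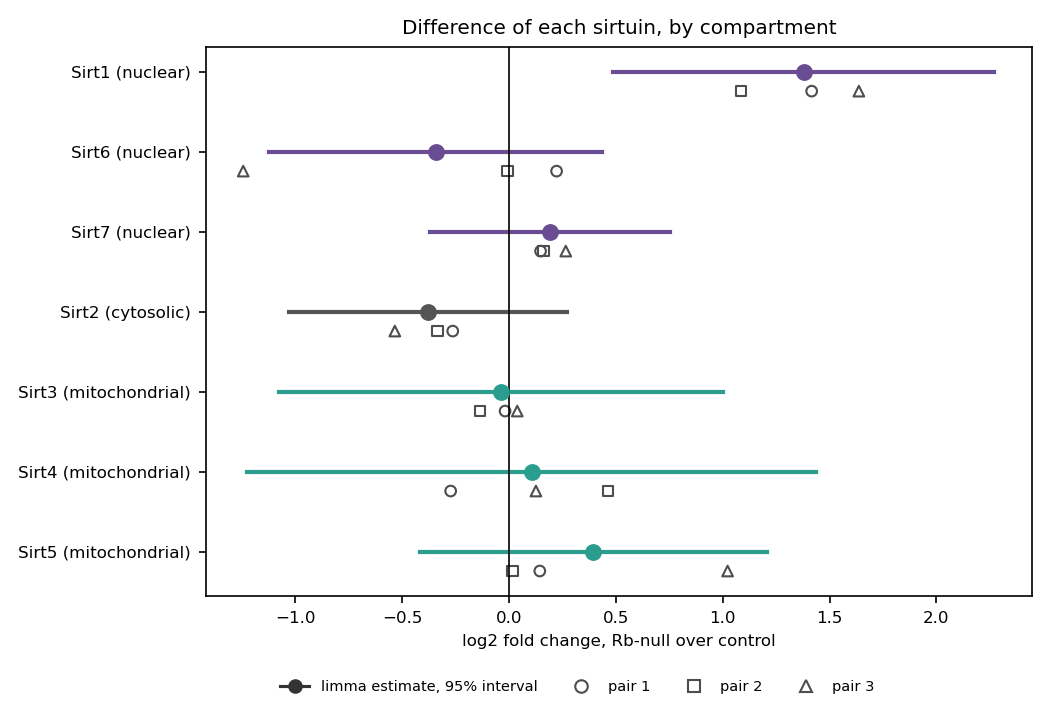
Log2 fold change (Rb-null over control) of each sirtuin with limma's 95% interval, coloured by compartment, and the difference within each pair of arrays as open symbols below. The interval lies wholly above 0 for Sirt1 (0.49 to 2.27) and spans 0 for the other 6 members.

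Sirt3 is the main deacetylase of the mitochondrial matrix, with respiratory subunits, Sod2 and Idh2 among its substrates. Probe set 1417892_a_at gave 101, 82.1 and 22.4 for controls 1, 2 and 3, against 95.6, 74.2 and 24.6 for their Rb-null partners. Arrays of the same number were nearly equal, and both arrays numbered 3 were far below the others. For Sirt3 the log2 fold change was -0.04 (SE 0.46, 95% interval -1.08 to 1.00), and with the block the interval was -0.40 to 0.32, which bounds the difference but does not show that the groups are alike. Its sign turned without control replicate 1, without control replicate 2 and without Rb-null replicate 3, in a range from -0.45 to 0.34 over arrays left out 1 at a time.

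Sirt4, which modifies glutamate dehydrogenase and other enzymes of the matrix, had the opposite pattern over the numbers. Probe set 1426847_at gave 187, 109 and 377 for controls 1, 2 and 3, against 153, 160 and 409 for their Rb-null partners, with both arrays numbered 3 above all others. For Sirt4 the log2 fold change was 0.11 (SE 0.59, 95% interval -1.23 to 1.44), with pair differences of -0.27, 0.46 and 0.13. Leaving out 1 array at a time gave -0.43 to 0.63, with a negative sign without control replicate 2 and without Rb-null replicate 3. Without both arrays numbered 3 it was 0.10, and with the granulocyte covariate -0.069.

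Sirt5 removes succinyl, malonyl and glutaryl groups from mitochondrial enzymes. Its bright probe set, 1428916_s_at, gave 156, 161 and 49.7 for controls 1, 2 and 3, against 174, 165 and 115 for their Rb-null partners. Pairs 1 and 2 were close, at 0.14 and 0.02, and pair 3 stood apart at 1.02. Together they gave a log2 fold change of 0.40 (SE 0.36, 95% interval -0.42 to 1.21, limma adjusted p = 1.00). It was 0.01 without control replicate 3, 0.08 without both arrays numbered 3 and 0.46 without Rb-null replicate 3. Nearly all of the Sirt5 estimate therefore rests on control replicate 3.

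The other Sirt5 probe sets, 1428915_at and 1432105_at, read 4.63 to 15.8 and 1.23 to 9.37, below the intensity of 18.9 at which the filter lay. Their log2 fold changes in the fit without a filter were 0.11 (SE 0.29) and 0.21 (SE 0.25). With an offset of 1 in place of 16 they were 0.47 and 0.87, so the size at such signals depends on the offset, and no level is read from them.

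Nuclear and mitochondrial members were compared by the median log2 fold change of each class over all members. The nuclear median was 0.19 over 3 genes and the mitochondrial median 0.11 over 3 genes, a difference of 0.09. Within pairs 1, 2 and 3 the difference was 0.24, 0.14 and 0.14 (SD 0.06), each above the 0.09 of the fit. The gene at the median changed between pairs, from Sirt6 to Sirt7 and Sirt7 among nuclear members. Among mitochondrial members it was Sirt3, Sirt5 and Sirt4, so that SD is not the spread of the 0.09. Leaving out 1 array at a time gave -0.18 to 0.16, negative without each of the 3 Rb-null arrays. The nuclear class itself held the highest and the second lowest member, Sirt1 and Sirt6. No test was run on these class values.

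**Figure D3:**
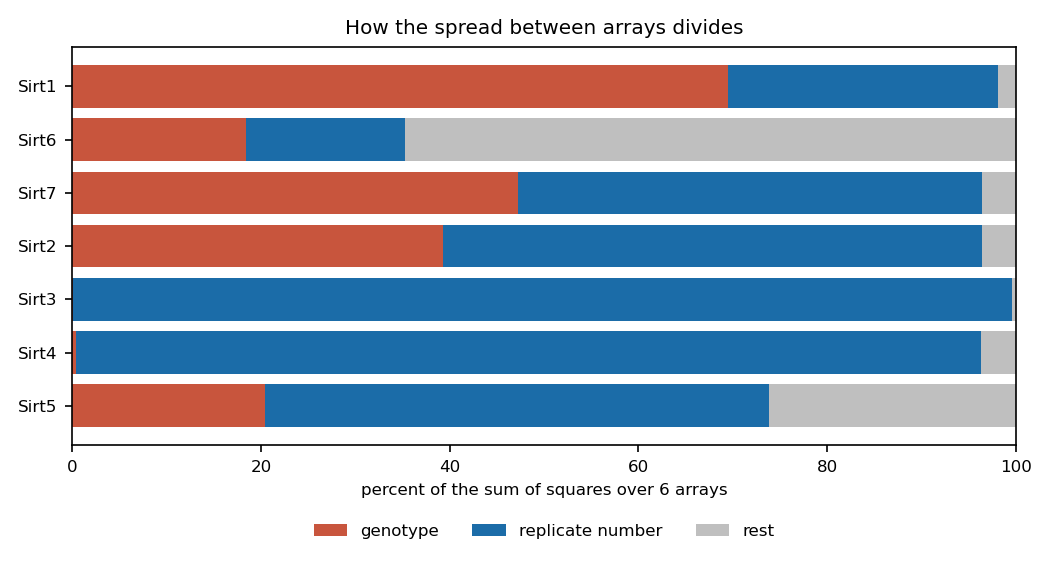
Share of the sum of squares of normalized log2 values over 6 arrays that falls to genotype, to replicate number and to the rest, for each sirtuin. Genotype holds 69.5% for Sirt1 and 0.11% for Sirt3, and replicate number 99.5% for Sirt3 and 95.9% for Sirt4.

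The spread between arrays divided differently among the members. For Sirt1 genotype held 69.5% of the sum of squares, replicate number 28.7% and the rest 1.88%, beside medians of 9.79% for genotype and 69.4% for replicate number over all genes tested. Sirt7 and Sirt2 had 47.2% and 39.3% under genotype, with 3.59% and 3.63% left over. Sirt3 and Sirt4 had 0.11% and 0.45% under genotype, and Sirt6 had most, 64.8%, in the rest. Between arrays numbered 3 and the others, Sirt3 differed by -1.18 and Sirt4 by 1.60 on the log2 scale, where the median absolute difference of all genes was 0.46. Sirt1 differed by -0.93 and Sirt5 by -0.67, and Sirt6, Sirt2 and Sirt7 by 0.23, 0.20 and -0.01.

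By absolute value, the strongest correlations between members were those of Sirt2 with Sirt7 (Pearson r = -0.95 over 6 arrays) and Sirt3 with Sirt4 (r = -0.90). Both of these pairs of genes ran opposite. Sirt1 and Sirt5 ran together (r = 0.82), and Sirt5 and Sirt6 ran opposite (r = -0.81). These arrays share genotype and replicate number, so such values describe the arrays only. Among all tested genes, those closest to Sirt1 were Rab11b, Mllt10 and Otud4, each at r = 1.00 after rounding. At r above 0.95 stood 120 genes for Sirt1, 40 for Sirt6, 25 for Sirt7, 86 for Sirt2, 444 for Sirt3, 349 for Sirt4 and 136 for Sirt5. Closest to Sirt6 were Avpi1, Cdkn2aipnl and Pygm (0.99 or above), to Sirt7 Zfp592, Kcna2 and Bcor (0.98 or above), and to Sirt2 Cyb5r3, Mrpl23 and Tbcb (0.99 or above). For Sirt3 they were Cep70, Afg3l2 and Mia3, for Sirt4 Lpo, Trmt13 and Trhr2, and for Sirt5 Sypl, Zfp319 and Col5a2, each at r = 1.00 after rounding.

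Genes that supply or consume NAD were split between the directions. Of 30 such genes 22 were tested, 12 positive and 10 negative, with a median of 0.05, and limma called 0 of them in either fit. With a filter at the 60th percentile that median was -0.25, so the list has no settled direction. The unadjusted count was 0 of 22, beside 2.55% of all genes higher and 1.51% lower. With the block it was 5 (1 higher and 4 lower), beside 7.77% and 9.14% of all genes. Nampt, the enzyme that limits the recycling of nicotinamide to NAD, gave 119, 142 and 20.9 for controls 1, 2 and 3, against 217, 226 and 65.7 for their Rb-null partners. It was higher in each pair, by 0.80, 0.58 and 1.18 on the log2 scale, and the groups overlapped through the arrays numbered 3 (log2 fold change 0.85, SE 0.54, limma adjusted p = 1.00). A second Nampt probe set past the filter had 0.11.

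On the other side lay Nadk2, the mitochondrial NAD kinase, at -0.67 (SE 0.30), though its 3 other probe sets had -0.14 to 0.37. Afmid, of the route from tryptophan to NAD, had -0.48 (SE 0.25), and Slc25a51, the carrier of NAD into mitochondria, -0.45 (SE 0.32), each negative on every probe set past the filter and in each pair. Parp1, a nuclear consumer of NAD in DNA repair, had -0.12 (SE 0.28), with -0.72 to -0.21 on its 3 other probe sets.

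For regulators and partners of sirtuins the median was 0.13 over 19 tested genes of 20, 12 of them positive, and limma called 0. It ran from -0.03 to 0.20 over the alternatives. At unadjusted p under 0.05 stood 1 gene, and 2 with the block, all higher, beside 2.55% and 7.77% of all genes. The gene without the block was Dyrk1a, a kinase that can phosphorylate Sirt1, at 0.68 (SE 0.25; 0.35 to 1.36 on its other probe sets), with a control mean of 317 ± 72.7 (SD, n = 3) and an Rb-null mean of 526 ± 87.6 (SD, n = 3). Bcl6 had 0.61 (SE 0.38) and 0.17 on its other probe set, the kinase Stk11, also called LKB1, 0.58 (SE 0.36) and 0.33, and Hinfp 0.36 (SE 0.25) and 0.35, all 3 higher in each pair. Ccar2, an inhibitor of Sirt1, had -0.17 (SE 0.39) with pair differences of 0.53, -0.21 and -0.84. Foxo3 had 0.22 (SE 0.50), and Hic1, a repressor of Sirt1, read at most 8.04 on any array and was below the filter.

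Substrates of nuclear sirtuins had a median of 0.04 over 22 tested genes of 29, 12 positive and 10 negative, with 0 called and 0 at unadjusted p under 0.05 (4 with the block, all higher, beside 7.77% of all genes). Tal1, a factor of the erythroid program, had 0.49 (SE 0.27), the NF-kappaB subunit Rela 0.40 (SE 0.24), Gabpb1 0.77 (SE 0.47) and Ubtf, of ribosomal RNA transcription, 0.49 (SE 0.31), the last 2 with 0.51 and 0.28 on their other probe set. Each was higher in all 3 pairs, but these 4 were named for the smallest p in the list. Of the 22, 7 were higher and 3 lower in each pair, beside 18.4% and 24.1% of all genes.

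Substrates of mitochondrial sirtuins had a median of -0.22 over 26 tested genes of 30, beside -0.04 over all genes. Of the 26, 7 were positive and 19 negative, where 45.4% of all genes were positive, and 15 were lower in each pair, beside 24.1% of all genes. Other mitochondrial genes were not set beside this list, so whether its direction is particular to sirtuin substrates was not tested. The median was negative under all 17 alternatives, from -0.37 without control replicate 1 to -0.10 with the granulocyte covariate. Under 6 of the 17 it moved by more than 1 SD of its pair values. Limma called 0, and at unadjusted p under 0.05 stood 1 higher and 1 lower gene, beside 2.55% and 1.51% of all genes. With the block these were 1 and 7, beside 7.77% and 9.14%. The lower gene without the block was Acss1, a mitochondrial acetyl-CoA synthetase deacetylated by Sirt3, at -0.75 (SE 0.28), with a control mean of 298 ± 83.8 (SD, n = 3) and an Rb-null mean of 175 ± 64.9 (SD, n = 3). Sdha and Sdhb, subunits of complex II, had -0.69 (SE 0.31; -0.80 to -0.13 on the other Sdha probe sets) and -0.57 (SE 0.26).

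The higher gene was Sod2, the superoxide dismutase of mitochondria. Controls 1, 2 and 3 gave 430, 630 and 297, and their Rb-null partners 1090, 837 and 692, and the groups did not overlap. On the log2 scale the difference was 0.92 (SE 0.29, limma adjusted p = 0.826), while its other probe sets past the filter ranged from 0.07 to 0.99, so they disagree in size. Idh2 had -0.21 (SE 0.32) with pair differences of -0.58, -0.40 and 0.35.

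**Figure D4:**
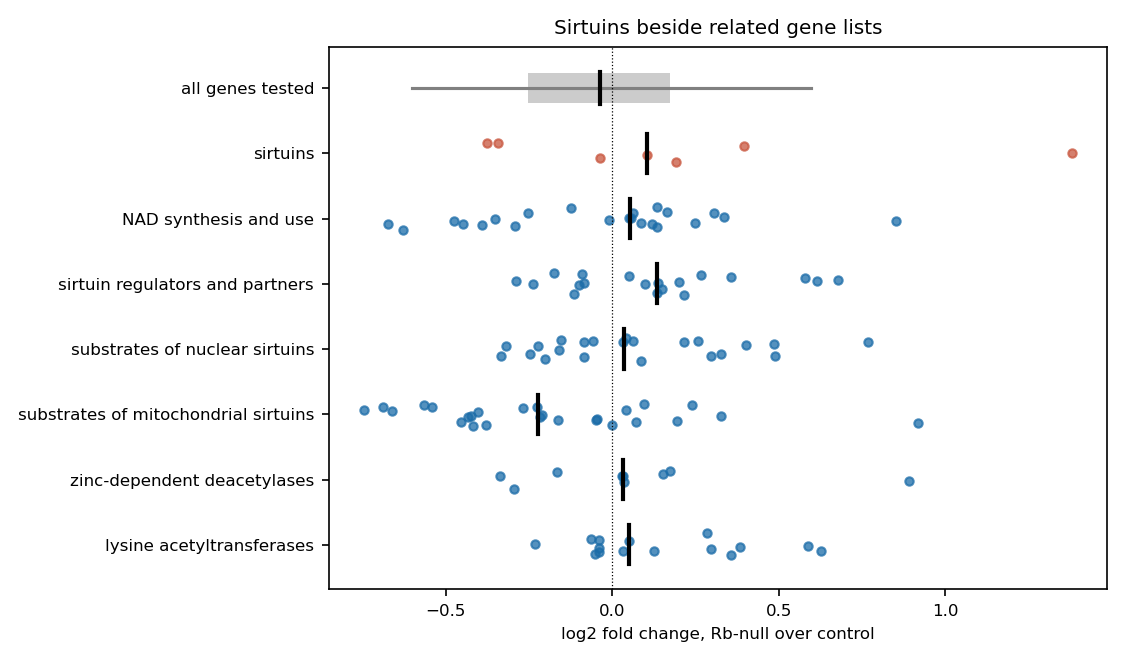
Log2 fold change (Rb-null over control) of each tested gene in the sirtuin family and in 6 related lists, 1 point a gene, with the list median as a black bar. The top row gives all 13232 genes as the middle 50% (box, -0.25 to 0.17) and the 5th to 95th percentile (line, -0.60 to 0.60). Sirt1 at 1.38 lies right of every other point.

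The zinc-dependent deacetylases, which remove acetyl groups without NAD, had a median of 0.03 over 9 tested genes of 11, with 6 positive and 0 called. Over the alternatives that median ran from -0.07 to 0.11. At unadjusted p under 0.05 stood 1, also with the block, beside 2.55% and 7.77% of all genes higher. It was Hdac6, a cytosolic enzyme that shares tubulin as a substrate with Sirt2. Hdac6 gave 63.1, 76.6 and 38.5 for controls 1, 2 and 3, against 106, 135 and 117 for their Rb-null partners, with no overlap, a log2 fold change of 0.89 (SE 0.27, limma adjusted p = 0.755) and the opposite sign to Sirt2. Hdac1 and Hdac2, nuclear partners of Rb, had -0.29 (SE 0.37) and 0.03 (SE 0.46), with -0.26 to 0.17 on the other Hdac2 probe sets. Hdac10 had -0.34 (SE 0.38), with pair differences of -0.03, -0.09 and -0.89, and Hdac11 had -0.17 (SE 0.28).

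Lysine acetyltransferases, which add the groups that sirtuins remove, had a median of 0.05 over 15 tested genes of 15, with 9 positive and 0 called. Over the alternatives that median ran from -0.01 to 0.20. At unadjusted p under 0.05 stood 1, Kat6a, at 0.63 (SE 0.24) and 0.17 on its other probe set past the filter, beside 2.55% of all genes higher. With the block there were 3, all higher, beside 7.77%. Esco2, which acetylates cohesin in S phase, had 0.59 (SE 0.38) but 0.06 on its other probe set. Crebbp had -0.23 (SE 0.29), with -0.36 to 0.11 on its other probe sets past the filter. Ep300 had 0.30 (SE 0.40), with pair differences of -0.16, 0.20 and 0.85.

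Neighbouring genes were read because several sirtuins lie close to another gene in RefSeq. A protein-coding gene on each side was taken whatever the gap, from an overlap (Sirt3 and Ric8a) to 61216 bases (Sirt5 and Gfod1). Herc4 lay 1123 and Dnajc12 43407 bases from Sirt1, and Tle6 lay 20601 bases from Sirt6. Mafg, on one side of Sirt7, had a log2 fold change of 0.91 (SE 0.28, limma adjusted p = 0.767) and Pcyt2, on the other, 0.57 (SE 0.50). Psmd13 and Ric8a, the neighbours of Sirt3, had 0.04 (SE 0.25) and -0.23 (SE 0.35), and Herc4 and Dnajc12, beside Sirt1, had -0.14 (SE 0.39) and 0.03 (SE 0.34). Next to Sirt2, Rinl had -0.41 (SE 0.27) and Nfkbib 0.23 (SE 0.31). Pla2g1b and Pxn, beside Sirt4, had 0.92 (SE 0.43, limma adjusted p = 1.00) and -0.44 (SE 0.43), where Sirt4 had 0.11. Gfod1 and Nol7, beside Sirt5, had -0.05 (SE 0.26) and -0.33 (SE 0.33), and Ankrd24, beside Sirt6, -0.08 (SE 0.27), while Tle6 on its other side was not tested. Neither neighbour of Sirt1 shared its difference in these estimates, and no test of that was run.

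**Figure D5:**
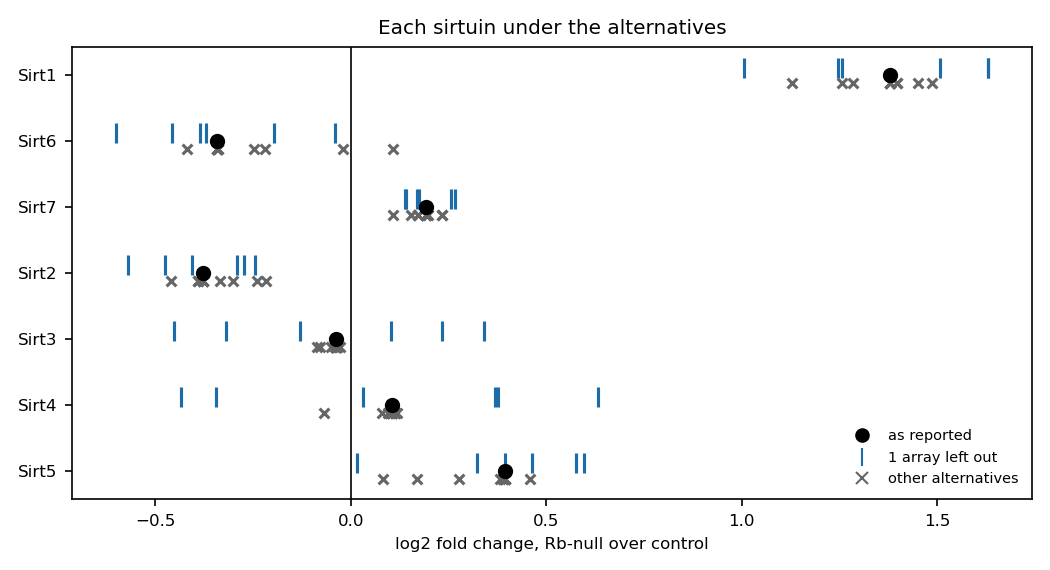
Log2 fold change (Rb-null over control) of each sirtuin as reported and under 17 alternatives, with arrays left out 1 at a time as vertical ticks and the other alternatives as crosses. Sirt1 stays between 1.01 and 1.63, and Sirt3 and Sirt4 lie on both sides of 0.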

How the data were processed

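RNA of 6 samples was hybridised to 1 Affymetrix array each, per the labels. The authors deposited linear intensities, 1 for each probe set. Their summary method and scaling are not given in the sources used here. Titles gave the groups and replicate numbers. Of 45101 probe sets, 64 controls, 4 empty ones and 1 above the scanner's range of 65535 were left out. Symbols came from the platform annotation (34941 probe sets with 1 symbol, 932 with several, 9159 with none). Values were taken as log2(value + 16) and quantile normalized, as array medians differed by 0.264. Genes were represented by the probe set of highest mean, kept above the 40th percentile (log2 5.12). Rb-null was compared with control over all 13232 genes with limma 3.58.1 in R 4.3.3, 2-sided, with Benjamini-Hochberg adjustment and a threshold of 0.05, and likewise over 22239 probe sets. The fit was also run on simulated data that held no effect of replicate number. That setting is easier than these arrays, so the run does not measure how the test performs here. An exact permutation test of 3 against 3 cannot go below p = 0.1, so none was used.

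Deviations from the group means correlated at 0.636, 0.615 and 0.653 within the 3 numbers, so the numbers pair the arrays. What the numbers stand for is not stated. Genes named were the members, fixed regulators and substrates, up to 4 per list with the smallest p, the 3 genes most correlated with each member, and neighbours. Cd38 and Trp53 were in that rule and were not analysed here. Members and lists were chosen with earlier results of these data known. Alternatives covered offset, normalization, filter, choice of probe set, block, array weights and arrays left out. Promoter sequences came from RefSeq (GRCm38.p6), where all 7 members matched, and were read over the 250 bases before the start with Python 3.11.15.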

Additional observations from a re-analysis of the deposited data

How the results depend on the processing

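The number of arrays, 3 a group, limits every value. The count of called genes was 0 in the main analysis, 2 with an offset of 64 and 3 with array weights, none of them a sirtuin, and 0 under the other alternatives, the replicate block among them. Sirtuins called were 0 under all 17 alternatives by gene and under the 16 run by probe set, where the mean of probe sets has no meaning. Sirt1, Sirt2, Sirt5 (bright probe set) and Sirt7 kept their sign throughout. Sirt6 turned to 0.11 without both arrays numbered 3. Sirt3 ranged from -0.45 to 0.34 and Sirt4 from -0.43 to 0.63 with 1 array left out, and Sirt4 was -0.069 with the granulocyte covariate. The dim Sirt5 probe set 1428915_at ranged from -0.032 to 0.38 with 1 array left out, and with an offset of 1 it was 0.47 and the other dim one, 1432105_at, 0.87. The difference between nuclear and mitochondrial members ranged from -0.18 to 0.16 with 1 array left out and was 0.18 with that covariate. The cause was not tested. Recomputed 102 times in all, the medians of the 6 related lists moved by less than 1 SD of their pair values 83 times and by more 19 times. The covariate and the recomputation of the lists were added after seeing the data.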
